A study of Homo sapiens with 6 samples.

Results

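The ubiquitin-specific proteases (USPs) form a large family of human deubiquitinases, cysteine proteases that remove ubiquitin from proteins or trim ubiquitin chains. The genes were taken by name: every entry of the deposited table called USP, a number and at most 1 letter, USP18 left out. This gave 50 genes among 26485 entries, of which 42 were tested among 11454 genes. USP-like names with other endings, such as the USP17-like copies, USPL1 or USP6NL, were not members. RNA came from REH cells, an established human cell line of B-precursor acute lymphoblastic leukemia, after 24 h with 25 µM ML141, an inhibitor of the small GTPase CDC42, or with the solvent DMSO. Each group had 3 libraries, which the labels number 1 to 3, and the agent is the only difference the labels give between the groups. The question was which transcripts change with ML141, and the values are RNA levels in whole cultures, in which fewer cells of a type and less RNA per cell cannot be told apart.

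USP proteins act against ubiquitin ligases, so they can spare a substrate from the proteasome, recycle ubiquitin or end a signal carried by a chain. Single members serve DNA repair, histone marks, endosomal sorting, mitochondrial turnover, splicing and the proteasome itself, and several need a WD40-repeat protein, WDR48 or WDR20, for full activity. Among the best studied are USP7, which removes ubiquitin from MDM2, and USP1, which removes it from PCNA and FANCD2.

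Total counts were 10436147 to 12308039 in the ML141 libraries and 8284299 to 10837224 in the DMSO libraries. The 50 USP genes together took 0.549% to 0.564% of the counts in the ML141 libraries and 0.553% to 0.572% in the DMSO libraries. Of 15 genes that mark precursor B cells, 13 were tested. The summed level of the 15, in counts per 1000000 counts (CPM) on TMM-scaled library sizes, was 9018 to 9289 CPM with ML141 and 6798 to 7419 CPM with DMSO, while VPREB1 and CD34 had at most 3 counts in a library. The 6 T cell markers found in the table summed to at most 0.774 CPM with ML141 and 0.648 CPM with DMSO, with CD3D, CD3G and CD2 at 0. The 7 myeloid markers summed to 32.8 to 36.2 CPM with ML141 and 49.1 to 50.1 CPM with DMSO, most of it MPO. Of the 13 tested B cell markers 9 rose, none fell and CD22, VPREB3, RAG1 and RAG2 did not pass, while MPO fell. The part of these markers in the USP results was not tested.

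With ML141, 16 of the 42 tested USP genes fell, 3 rose and 23 did not pass the test (edgeR quasi-likelihood test, Benjamini-Hochberg adjusted p under 0.05 over all genes tested, n = 3 per group). The largest falls were in USP54, USP1, USP37, USP14 and USP13, by 0.70 to 0.95 on the log2 scale. The genes that rose were USP47, USP20 and USP35, by 0.62 to 0.74. None of the USP genes taken by name changed by more than 2-fold in either direction. For all genes tested, 27.7% were called lower and 26.7% higher, against 38.1% and 7.14% of the USP genes, and 54.4% were called in either direction, against 45.2% of the USP genes. No test was made of the list as a whole or of the groups by role below. Those groups hold 2 to 7 tested genes each.

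The ML141 libraries lay wholly below the DMSO libraries in 17 USP genes and wholly above them in 7, where the same held for 30.7% and 30.5% of all genes tested. All 19 called genes were among these 24. The other 5 were USP3, below DMSO, and USP21, USP27X, USP30 and USP42, above it, with adjusted p of 0.0862 to 0.146. The median log2 fold change of the USP genes was -0.10, against 0.017 for all genes tested, and the median size of a change, whatever its sign, was 0.25, against 0.39 for all genes tested. Changes past 2-fold in either direction occurred in 13.2% of all genes tested.

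**Figure D1:**
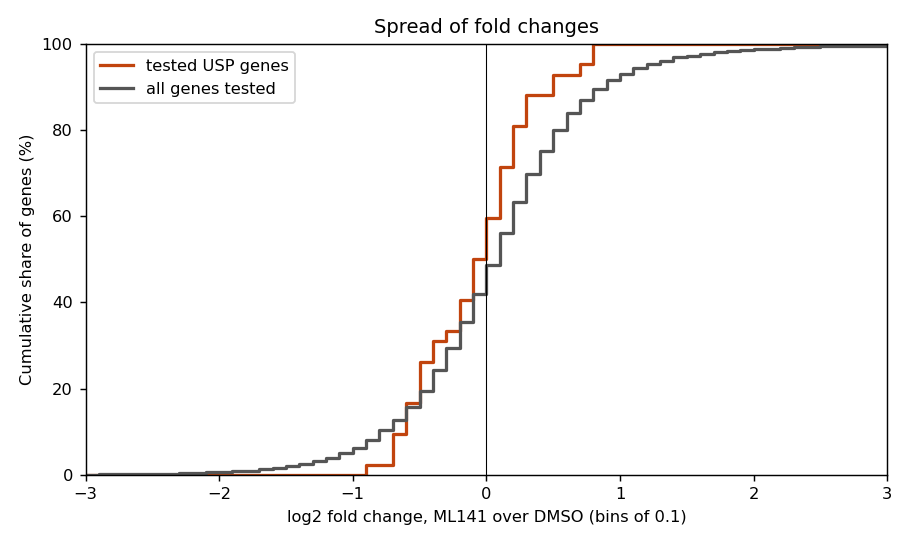
Cumulative share of genes (y axis, percent) by log2 fold change of ML141 over DMSO (x axis, bins of 0.1) for the 42 tested USP genes and all 11454 genes tested. The USP curve reaches both ends within 1 unit of 0, between -0.95 and 0.74, whereas 13.2% of all genes lie further out.

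The scaling of the libraries set how many genes were called higher. The analysis used TMM factors, which assume that most genes do not change. With upper-quartile factors 10 USP genes were higher and 14 lower, where 33.6% and 22.8% of all genes were called, and with library totals 15 were higher and 13 lower, where 39.2% and 20.1% were. Under these scalings the median over all genes tested moved up on the log2 scale by 0.10 and 0.17, and that of the USP genes to -0.0030 with upper-quartile factors and to 0.069 with library totals. The 3 rises held under both, as did 13 of the 16 falls. USP5 and USP48 were no longer called under either scaling, and USP51 was not called with library totals. With the replicate number as a block 5 were higher, USP8 and USP53 added, and 17 lower, USP15 added. Without ML141 replicate 2 the number called higher was 6, with USP8, USP30 and USP53 added, and 18 were called lower, with USP11 and USP36 added. The shares of all genes called with the block or with libraries left out are not given here, so these counts have no background beside them. The authors' deposited table gave 3 of the 42 genes as higher and 16 as lower at an adjusted p under 0.05, and the call of every one of the 42 matched the call given here.

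**Figure D2:**
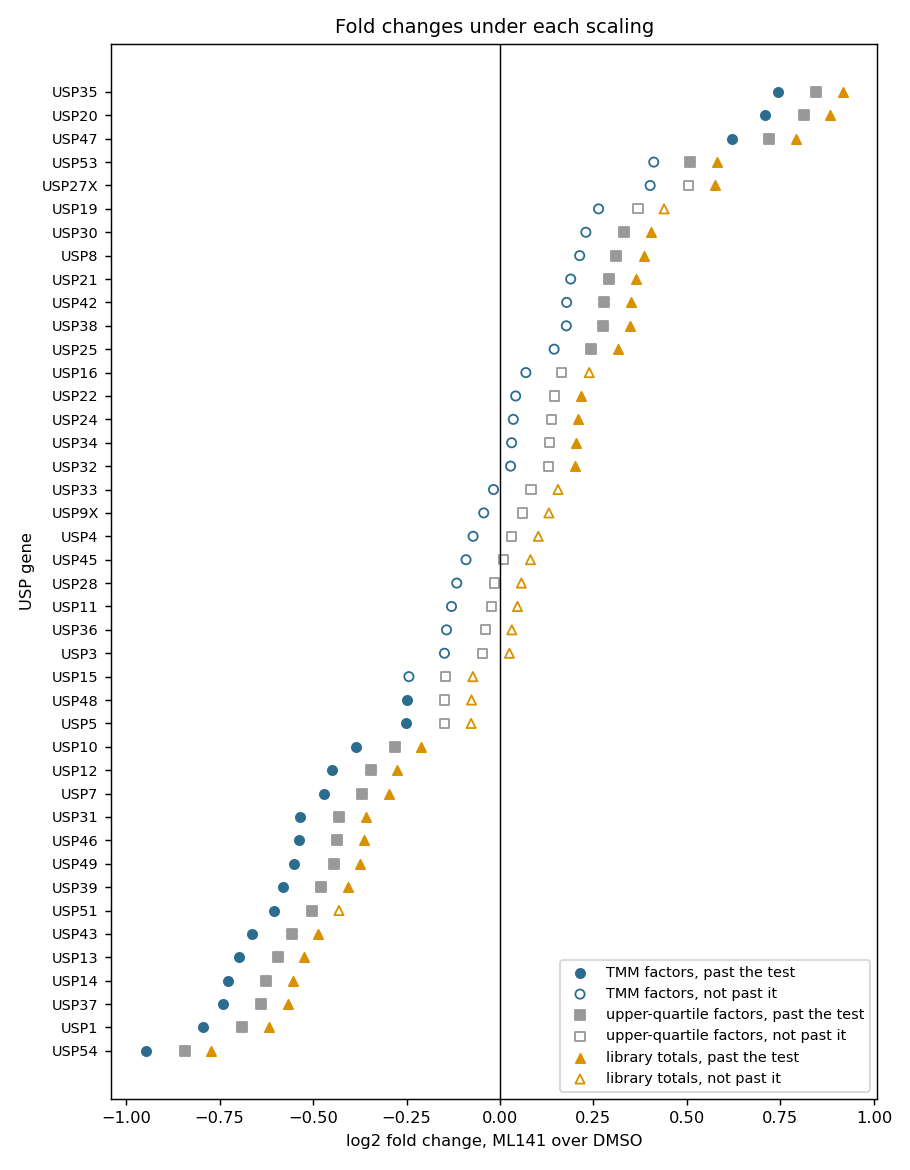
Log2 fold change of ML141 over DMSO (x axis) of each tested USP gene (rows) with TMM factors, upper-quartile factors and library totals; filled symbols passed the test at an adjusted p of 0.05. The 3 symbols of a gene keep nearly the same spacing, so genes near 0 cross the line, while USP54, at -0.95 with TMM factors, stays lower and USP35, at 0.74, higher under all 3.

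Levels of single genes are given in CPM on the same TMM scale, for replicates 1, 2 and 3 in that order. Among tested USP genes the lowest mean over the 6 libraries was 4.50 CPM and the highest 631 CPM, and the median gene stood at 95.2 CPM with ML141 and 105 CPM with DMSO, against 36.3 and 36.6 CPM for all genes tested. Per kilobase of annotated exon, the USP gene with the highest level in the DMSO libraries was USP1, followed by USP22, USP7, USP39 and USP10. In CPM per kb, USP1 stood at 81.5 with ML141 and 141 with DMSO, and USP22, whose groups overlapped, at 119.5 with ML141 and 116 with DMSO. Of the USP genes, USP22 had the highest level per kb with ML141 and USP1 the highest with DMSO. The lowest tested gene in DMSO was USP35, at 1.14 with ML141 and 0.681 with DMSO in CPM per kb. Summed over all 50 genes, the level was 5306, 5234 and 5163 CPM in the ML141 libraries and 6068, 6117 and 5780 CPM in the DMSO libraries, so the groups did not overlap on this scale. As a share of all counts, given above, they did.

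Among the USP genes of DNA repair and replication, 3 fell, 1 rose and 3 of the 7 tested did not pass. Of all genes tested, 27.7% were called lower and 26.7% higher. USP1 (chromosome 1, 62436297 to 62451804, plus strand, GRCh38) removes monoubiquitin from PCNA and FANCD2 and so ends the damage signal at stalled forks and crosslinks. It had 329, 324 and 387 CPM in the ML141 libraries, against 642, 594 and 567 CPM in the DMSO libraries. Every ML141 library was well below every DMSO library, and replicate 3 was the highest of the ML141 group. The difference came to -0.79 (SE 0.090, adjusted p = 1.89e-05 by edgeR) on the log2 scale, or 1.73-fold lower. USP37 (chromosome 2, 218450251 to 218568361, minus strand) opposes the breakdown of cyclin A at the entry to S phase. Its level was 67.8, 61.2 and 62.9 CPM in the ML141 libraries, against 119, 97.4 and 104 CPM in the DMSO libraries, and the groups were far apart. It fell by 0.74 on the log2 scale (SE 0.098, edgeR adjusted p = 5.97e-05). VIL1 covers 35.4% of its exon bases on the opposite strand and had 0 counts in every library of both groups. Libraries of this protocol carry no strand information, so strand could not assign reads in the shared bases. Their part in the USP37 value was not tested.

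USP7, which acts on MDM2 and DNMT1, had 337, 333 and 312 CPM in the ML141 libraries, against 465, 479.7 and 418 CPM in the DMSO libraries. The ML141 values were closer together than the DMSO values, and the groups did not overlap. ML141 over DMSO gave a log2 ratio of -0.47 (SE 0.081, adjusted p = 0.000424 by edgeR). USP47, which removes ubiquitin from DNA polymerase beta, went the other way. It had 328, 241 and 248 CPM in the ML141 libraries, against 189.7, 178 and 163 CPM in the DMSO libraries. All ML141 libraries were higher, and replicate 1 stood above the other two of its group. Its change on the log2 scale was 0.62 (SE 0.116, adjusted p = 0.000745 by edgeR), and 0.47 without ML141 replicate 1. USP11, a partner of BRCA2, had 126 ± 21.2 CPM with ML141 and 138 ± 5.79 CPM with DMSO (SD, n = 3 each), with replicate 2 the highest in both groups. USP28, which steadies MYC, stood at -0.12 (SE 0.094), and USP45, which acts on the repair nuclease subunit ERCC1, at -0.091 (SE 0.131). These last 3 did not pass the test with TMM factors. Without ML141 replicate 2, USP11 was called lower, at -0.26 (edgeR adjusted p = 0.0288).

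The 3 USP genes of ubiquitin recycling and the proteasome all fell, where 27.7% of all genes tested were called lower. USP14 binds the regulatory particle of the proteasome and trims ubiquitin from substrates as they are taken in. Its level was 183, 168 and 166 CPM in the ML141 libraries, against 287, 297 and 271 CPM in the DMSO libraries, with no overlap between the groups. The difference came to -0.73 (SE 0.078, adjusted p = 1.27e-05 by edgeR) on the log2 scale. USP13 and USP5 are paralogs, and USP5 (isopeptidase T) takes apart free ubiquitin chains. USP13 had 94.6, 99 and 101 CPM in the ML141 libraries, against 163, 163 and 152 CPM in the DMSO libraries. All ML141 libraries were far below all DMSO libraries, which differed little within either group. ML141 over DMSO gave a log2 ratio of -0.70 (SE 0.078, adjusted p = 1.69e-05 by edgeR). USP5 had 116, 118 and 114 CPM in the ML141 libraries, against 132, 141 and 140.5 CPM in the DMSO libraries, a smaller gap with no overlap. It fell by 0.25 on the log2 scale (SE 0.076, edgeR adjusted p = 0.0153). USP5 did not pass without ML141 replicate 3 (adjusted p = 0.0567), without DMSO replicate 2 (0.069) and without DMSO replicate 3 (0.057), as well as with upper-quartile factors and library totals.

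USP12 and USP46 are close paralogs that depend on WDR48 and WDR20, and both fell. USP46 had 63.5, 69.8 and 59.9 CPM in the ML141 libraries, against 94.6, 93.1 and 93.1 CPM in the DMSO libraries, and its DMSO values differed by under 2 CPM. Its change on the log2 scale was -0.54 (SE 0.089, adjusted p = 0.000318 by edgeR). USP12 had 61.7, 63.9 and 62.8 CPM in the ML141 libraries, against 98.4, 81.4 and 78 CPM in the DMSO libraries, with DMSO replicate 1 the highest. The difference came to -0.45 (SE 0.102, adjusted p = 0.00274 by edgeR) on the log2 scale.

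Of the 7 USP genes that act on histones, 2 fell, none rose and 5 did not pass. Over all genes tested, 27.7% were called lower and 26.7% higher. USP49, which removes ubiquitin from histone H2B, had 84.4, 111 and 93.5 CPM in the ML141 libraries, against 138, 140.0 and 145 CPM in the DMSO libraries. The ML141 libraries spread more than the DMSO libraries and all lay lower. ML141 over DMSO gave a log2 ratio of -0.55 (SE 0.101, adjusted p = 0.000679 by edgeR). USP22 is the ubiquitin protease of the SAGA coactivator complex, and USP27X and USP51 are X-linked relatives that can take its place. USP22 was the most abundant USP transcript by CPM and had 592, 699 and 629 CPM in the ML141 libraries, against 607, 657 and 601 CPM in the DMSO libraries. The groups overlapped, with a log2 fold change of 0.042 (SE 0.085). USP51 fell by 0.60 (SE 0.182, edgeR adjusted p = 0.0141) at a low level, 5.20 ± 0.386 CPM with ML141 and 7.97 ± 1.15 CPM with DMSO, and it did not pass without DMSO replicate 1 (adjusted p = 0.0577). USP27X, at 5.56 ± 0.365 CPM with ML141 and 4.24 ± 0.734 CPM with DMSO, had a log2 fold change of 0.40 (SE 0.20, adjusted p = 0.109 by edgeR) and did not pass. USP16 and USP3, which act on ubiquitinated histone H2A, stood at 0.069 (SE 0.126) and -0.15 (SE 0.078). The USP16 libraries of the ML141 group ranged from 102 to 156 CPM, with replicate 1 the highest, against 121 to 125 CPM in the DMSO group. USP21, another H2A protease, had a log2 fold change of 0.19 (SE 0.098, adjusted p = 0.121 by edgeR).

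**Figure D3:**
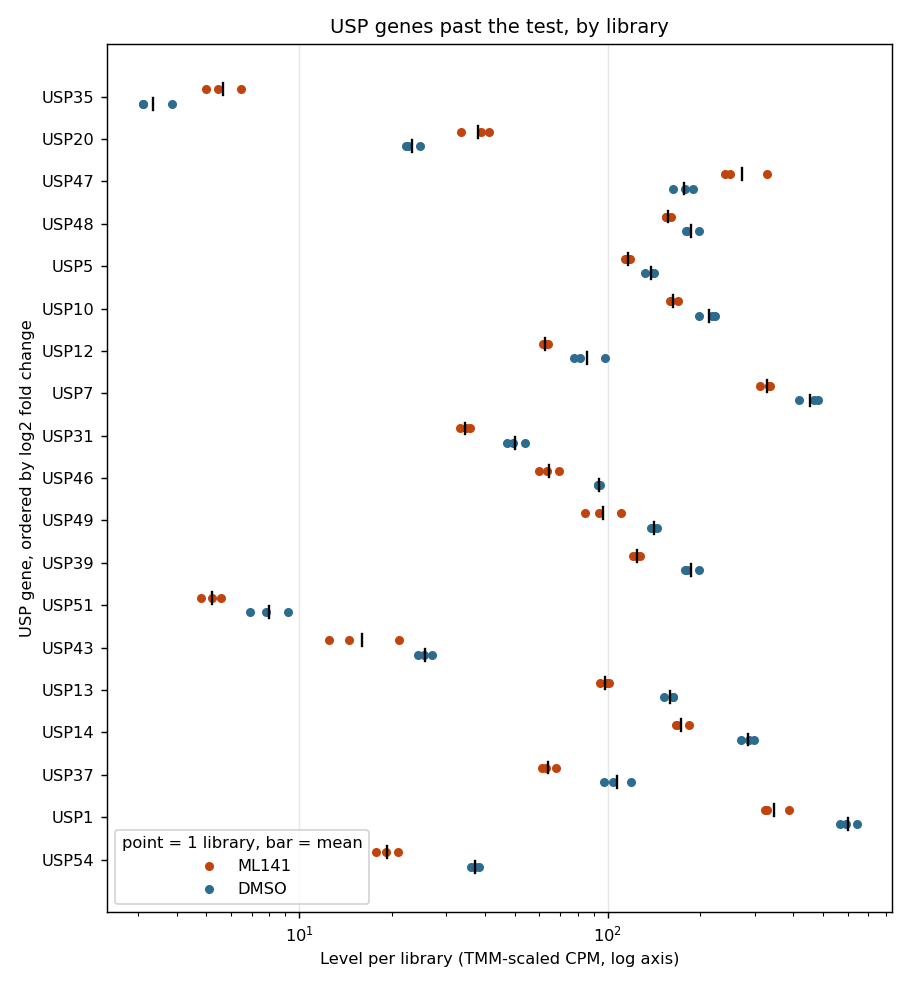
Level in each library (x axis, TMM-scaled CPM, log axis) of the 19 USP genes past the test (rows, ordered by log2 fold change), with ML141 above DMSO in each row; points are libraries and bars group means. The 3 points of a group stay clear of the other group in every row, as in USP54, where ML141 lies between 17.7 and 21 CPM and DMSO between 36 and 38.3 CPM.

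Among the USP genes of membranes and organelles, 2 rose, none fell and 5 of the 7 tested did not pass. For all genes tested, 26.7% were called higher and 27.7% lower. USP20 and USP33 are paralogs that bind the VHL protein and recycle the beta-2 adrenergic receptor. USP20 had 33.4, 41.2 and 38.9 CPM in the ML141 libraries, against 22.2, 22.6 and 24.7 CPM in the DMSO libraries. All ML141 libraries were higher, and the DMSO libraries lay close together. Its change on the log2 scale was 0.71 (SE 0.117, adjusted p = 0.000322 by edgeR). USP33 had 124, 104 and 118 CPM in the ML141 libraries, against 118, 119 and 112 CPM in the DMSO libraries and showed no difference beyond its spread, at -0.017 (SE 0.088). USP35 had 5.47, 6.49 and 4.99 CPM in the ML141 libraries, against 3.11, 3.11 and 3.86 CPM in the DMSO libraries. These levels of USP35 came from 59, 86 and 58 counts in the ML141 libraries and 24, 30 and 40 in the DMSO libraries. Of its exon bases 0.22% overlap KCTD21 on the opposite strand, which had 263 counts with ML141 and 101 with DMSO, and its part in the result was not tested. The difference came to 0.74 (SE 0.210, adjusted p = 0.0101 by edgeR) on the log2 scale, and without DMSO replicate 2 the adjusted p was 0.0503. USP30 sits in the outer mitochondrial membrane and opposes mitophagy. Its antisense partner USP30-AS1 overlaps 3.55% of its exon bases and had 129 counts with ML141 and 31 with DMSO, and the part of those reads was not tested. USP30 had 43.8, 38.5 and 40.7 CPM in the ML141 libraries, against 36.4, 36.7 and 31.9 CPM in the DMSO libraries, above DMSO in every library by a small margin. ML141 over DMSO gave a log2 ratio of 0.23 (SE 0.106, adjusted p = 0.0862 by edgeR), which did not pass.

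USP8, which spares receptors and ESCRT proteins at endosomes, had 119 ± 16.7 CPM with ML141 and 102 ± 4.09 CPM with DMSO (SD, n = 3 each). Its change on the log2 scale was 0.21 (SE 0.104, adjusted p = 0.101 by edgeR). With the replicate block USP8 was called higher (adjusted p = 0.0443 by edgeR). ML141 replicate 1 was at 137 CPM and replicates 2 and 3 at 105 and 114 CPM. USP19, which has a form anchored in the endoplasmic reticulum, stood at 0.26 (SE 0.210) and USP32, a protein of the Golgi, at 0.028 (SE 0.085), neither past the test. USP32 has near-identical pseudogene copies and shares sequence with USP6, so its counts are less certain.

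In splicing and the nucleolus, USP39 fell while USP36 and USP42 did not pass. USP39 lacks protease activity and helps assemble the spliceosome's tri-snRNP. It had 127, 121 and 125 CPM in the ML141 libraries, against 179, 198 and 181 CPM in the DMSO libraries, with a clear gap between groups. The difference came to -0.58 (SE 0.078, adjusted p = 7.20e-05 by edgeR) on the log2 scale. USP36, the nucleolar protease that acts on MYC, had 72.8 ± 8.53 CPM with ML141 and 80.5 ± 0.657 CPM with DMSO (SD, n = 3 each). Its log2 fold change was -0.14 (SE 0.098), and of the 17 alternatives run it was called lower only without ML141 replicate 2 (-0.24, edgeR adjusted p = 0.0289). USP42 stood at 0.18 (SE 0.099). USP4 and USP15, paralogs of USP11 that the protein SART3 brings to the spliceosome, were at -0.072 (SE 0.105) and -0.24 (SE 0.111). The adjusted p of USP15 was 0.0811, and it was 0.00228 without ML141 replicate 1, in which the gene was at 109 CPM, against 80.2 and 93.1 CPM in the other two ML141 libraries. With the replicate block USP15 was called lower (adjusted p = 0.0277 by edgeR).

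Of the 7 tested genes of signalling and protein turnover, 2 fell and 5 did not pass, where 27.7% of all genes tested were called lower. USP10, which binds the stress granule proteins G3BP1 and G3BP2, had 159, 169 and 161 CPM in the ML141 libraries, against 223, 218 and 198 CPM in the DMSO libraries. The groups were separate, and the log2 fold change was -0.38 (SE 0.079, adjusted p = 0.00145 by edgeR). USP48 fell by 0.25 (SE 0.077, edgeR adjusted p = 0.0161), with 157 ± 3.71 CPM with ML141 and 186 ± 10.1 CPM with DMSO. It did not pass without DMSO replicate 1 (adjusted p = 0.0688) and without ML141 replicate 3 (0.0543). The large proteases USP9X, USP24 and USP34 were abundant, with means of 338, 289 and 380.2 CPM with ML141 and 349, 282 and 372 CPM with DMSO. Their log2 fold changes, -0.043 (SE 0.076), 0.036 (SE 0.076) and 0.031 (SE 0.072), were the closest to 0 of this group. USP25, the paralog of USP28, and USP38 stood at 0.14 (SE 0.098) and 0.18 (SE 0.118). AHSA2P overlaps 14.9% of the exon bases of USP34 on the opposite strand. In USP25 and USP38, ML141 replicate 1 was the highest of the 6 libraries.

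Of the less studied genes, USP54, USP43 and USP31 fell and USP53 did not pass. USP54 had 17.7, 19.2 and 21 CPM in the ML141 libraries, against 37.2, 38.3 and 36 CPM in the DMSO libraries, the largest relative fall of the family. ML141 over DMSO gave a log2 ratio of -0.95 (SE 0.112, adjusted p = 2.50e-05 by edgeR), or 1.93-fold lower. Of its exon bases 11.6% overlap PPP3CB-AS1 on the opposite strand, which had 543 counts in the ML141 libraries and 127 in the DMSO libraries, and its part in the USP54 value was not tested. USP53, the paralog of USP54, had 17, 10.2 and 12.6 CPM in the ML141 libraries, against 11.4, 8.91 and 9.64 CPM in the DMSO libraries. Its groups overlapped, with a log2 fold change of 0.41 (SE 0.198, adjusted p = 0.0979 by edgeR). With the replicate block USP53 was called higher (adjusted p = 0.0332 by edgeR). USP43 had 12.5, 21 and 14.5 CPM in the ML141 libraries, against 27, 24.4 and 25.4 CPM in the DMSO libraries, with ML141 replicate 2 well above the other two of its group. Its change on the log2 scale was -0.66 (SE 0.173, adjusted p = 0.00649 by edgeR), and -0.91 without that library. USP31 had 33.2, 34.8 and 35.7 CPM in the ML141 libraries, against 53.9, 49.2 and 47 CPM in the DMSO libraries, tight in the ML141 group. It fell by 0.53 (SE 0.10, edgeR adjusted p = 0.000772). A gene on its own strand, AC127459.1, shares 25.05% of its exon bases.

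**Figure D4:**
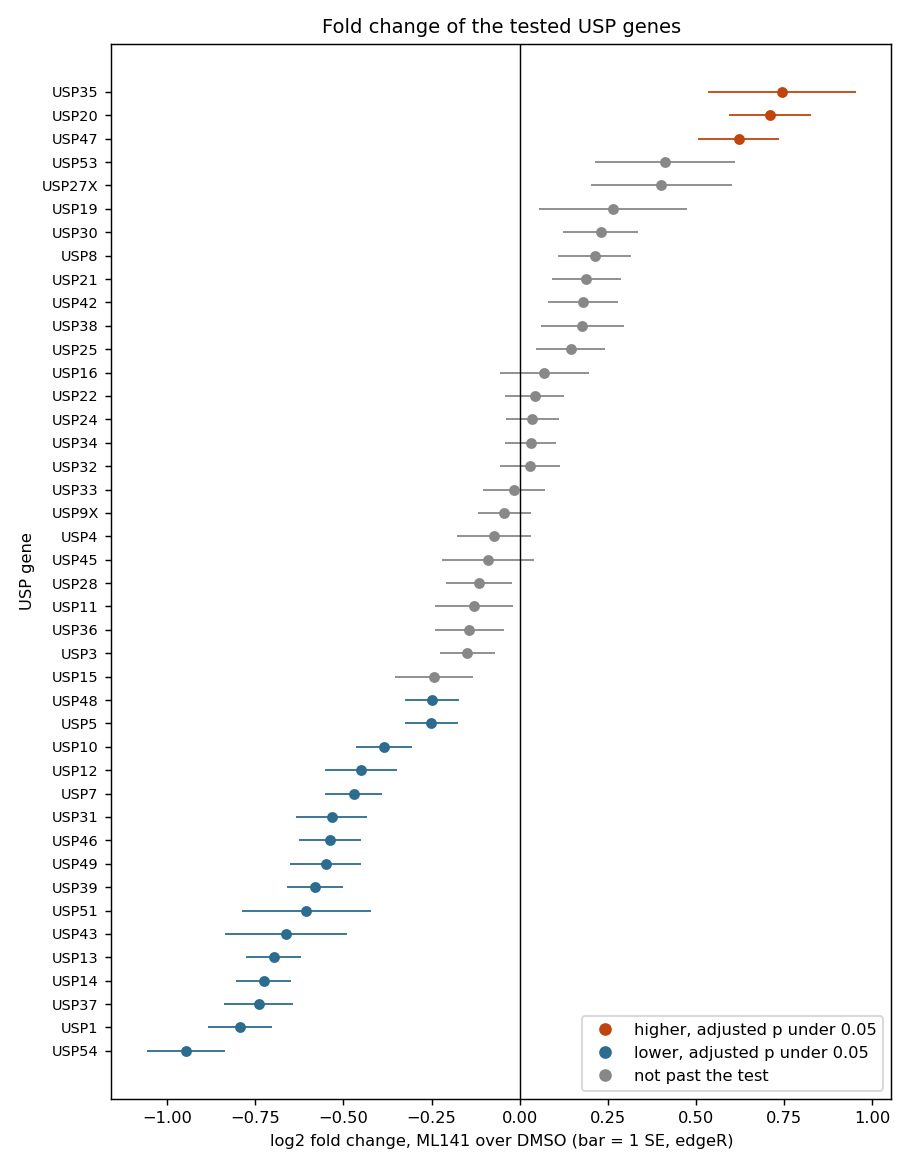
Log2 fold change of ML141 over DMSO (x axis, bars 1 SE from edgeR) of the 42 tested USP genes (rows), coloured by call. The 16 lower genes run from -0.95 in USP54 to -0.25 in USP48, the 3 higher genes from 0.62 to 0.74, and the genes not past the test lie between -0.24 and 0.41.

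Calls matched within some paralog sets and differed within others. USP5 and USP13 were both lower, as were USP12 and USP46, and USP25 and USP28 both failed the test. Neither USP16 nor USP45 passed it, nor did any of USP4, USP11 and USP15. One gene of a set was called and another not in USP20 and USP33, in USP53 and USP54, and in USP51 with USP22 and USP27X. Whether the fold changes of 2 paralogs differ from each other was not tested. Across the 42 genes, the log2 fold change had a Pearson r of -0.28 with the log2 mean level and of -0.052 with the log2 length of the longest annotated transcript, against -0.24 and 0.050 across all genes tested that had a value. Genes share their libraries and are not independent replicates.

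Of the 50 genes, 8 were not tested. USP9Y, USP26, USP29 and USP44 had no count in any library, which allows a level of up to 0.226 to 0.278 CPM in the ML141 libraries and 0.289 to 0.389 CPM in the DMSO libraries, at 3 counts and for counting error only. USP2, a protease under circadian control, had 10 counts in the ML141 libraries together and 5 in the DMSO libraries. USP50 had 1 count with ML141 and 5 with DMSO. USP6 had 3 counts and USP40 had 1, all with ML141. These counts were too few for a comparison.

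The promoter windows of the genes with the largest changes are shown so that the sequence at the starts of genes that moved together can be read. RefSeq promoter windows (GRCh38.p14, 250 bases before to 50 after the start, the most upstream start of each gene) were found for 34 of the 42 tested genes. USP37 was not among them, so the windows of USP54 and USP1, which fell, and of USP47, USP20 and USP35, which rose, are given, 5′ to 3′ on the gene's strand. Capitals mark a CCAAT box, CCAAT or its reverse complement ATTGG.
USP54 promoter, chr10:73625592-73625891, minus strand: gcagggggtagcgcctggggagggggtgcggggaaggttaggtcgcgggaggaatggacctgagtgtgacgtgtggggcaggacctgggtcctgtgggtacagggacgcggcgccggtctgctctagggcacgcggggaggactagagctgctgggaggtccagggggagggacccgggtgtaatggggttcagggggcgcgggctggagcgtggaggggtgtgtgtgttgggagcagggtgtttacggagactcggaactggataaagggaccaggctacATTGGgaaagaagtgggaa
USP1 promoter, chr1:62436145-62436444, plus strand: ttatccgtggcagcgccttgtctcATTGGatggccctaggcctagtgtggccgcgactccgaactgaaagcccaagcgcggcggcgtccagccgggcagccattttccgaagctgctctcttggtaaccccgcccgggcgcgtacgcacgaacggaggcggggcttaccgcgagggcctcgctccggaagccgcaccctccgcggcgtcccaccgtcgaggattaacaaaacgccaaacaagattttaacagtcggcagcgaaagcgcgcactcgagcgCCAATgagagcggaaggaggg
USP47 promoter, chr11:11841722-11842021, plus strand: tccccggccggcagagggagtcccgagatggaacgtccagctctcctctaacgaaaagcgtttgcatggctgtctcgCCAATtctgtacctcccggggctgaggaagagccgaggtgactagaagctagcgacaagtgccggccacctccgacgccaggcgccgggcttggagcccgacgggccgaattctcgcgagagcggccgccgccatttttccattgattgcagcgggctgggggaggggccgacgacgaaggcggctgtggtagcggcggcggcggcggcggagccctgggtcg
USP20 promoter, chr9:129835208-129835507, plus strand: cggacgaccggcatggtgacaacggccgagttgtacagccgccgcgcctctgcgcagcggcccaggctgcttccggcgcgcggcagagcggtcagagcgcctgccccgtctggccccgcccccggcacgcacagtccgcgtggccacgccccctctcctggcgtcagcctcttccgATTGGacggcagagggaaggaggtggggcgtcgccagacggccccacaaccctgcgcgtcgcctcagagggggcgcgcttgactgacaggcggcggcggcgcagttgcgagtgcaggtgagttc
USP35 promoter, chr11:78188669-78188968, plus strand: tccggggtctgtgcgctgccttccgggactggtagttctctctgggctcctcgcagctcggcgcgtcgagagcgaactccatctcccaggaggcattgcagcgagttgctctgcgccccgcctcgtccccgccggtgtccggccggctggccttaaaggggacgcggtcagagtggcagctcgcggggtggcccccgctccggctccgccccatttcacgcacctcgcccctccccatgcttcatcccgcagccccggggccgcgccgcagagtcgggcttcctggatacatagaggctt
USP1 held 2 such words, USP54, USP47 and USP20 held 1 each, and USP35 none. Over the 34 genes 29.4% had at least 1, as did 5 of the 11 lower genes with a window and 2 of the 3 higher genes, against 37.5% of 8644 promoters of tested genes and 35.7% of all 27305 promoters.

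Another 5 motifs were searched on both strands, each counted on its own whether or not it overlapped another. None of the 34 windows held an E2F-type word (TTTCCCGC, TTTGGCGC, TTTCGCGC or TTTGCCGC), which 5.78% of promoters of tested genes and 3.34% of all promoters held. None held the cyclic AMP response word TGACGTCA (3.24% and 1.97%), the ATF4-type word TGATGNAA (1.60% and 3.67%) or the heat shock word GAANNTTC (4.42% and 6.85%). The E-box CACGTG was found in 5.88% of the 34, in USP28 and USP32, against 10.2% and 7.40%. A match or its absence describes these letters in this window only.

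Genes whose products bind or are acted on by USP proteins were read from a list of 37, of which 36 were tested. Of these 10 were higher and 14 lower, with a median log2 fold change of -0.063, against 0.017 for all genes tested. These are 27.8% and 38.9% of the tested partners, where 26.7% of all genes were called higher and 27.7% lower. The number higher was 6 without ML141 replicate 3 and 5, 3 and 5 without DMSO replicates 1, 2 and 3. Shares of all genes called in those fits are not given, so these counts have no background beside them. WDR48, the activating partner of USP1, USP12 and USP46, rose, whereas all 3 proteases fell. It had 72.9 ± 11.7 CPM with ML141 and 48.6 ± 1.64 CPM with DMSO (SD, n = 3 each), a log2 fold change of 0.58 (SE 0.117, adjusted p = 0.00123 by edgeR). WDR20, the second partner of USP12 and USP46, stood at -0.067 (SE 0.114) and did not pass. The substrates of USP1 also fell, with PCNA, the sliding clamp, at -2.16 (SE 0.096), FANCD2 at -1.49 (SE 0.126) and its partner FANCI at -1.21 (SE 0.108).

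For USP7, GMPS, the nucleotide enzyme that binds it, had 178 ± 6.10 CPM with ML141 and 367 ± 12.2 CPM with DMSO, a log2 fold change of -1.04 (SE 0.074, adjusted p = 6.33e-07 by edgeR). DNMT1, the maintenance DNA methyltransferase, stood at -1.28 (SE 0.148). MDM2 did not pass, at -0.053 (SE 0.082). G3BP1 and G3BP2 fell with USP10, at -0.74 (SE 0.075) and -0.37 (SE 0.086). PSMD2, the proteasome subunit to which USP14 binds, fell to 236 ± 11 CPM with ML141, against 438 ± 25.6 CPM with DMSO, at -0.89 (SE 0.079). CCNA2, the cyclin that USP37 protects, stood at -1.52 (SE 0.125).

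Several partners were called where the protease itself was not. MYC, on which USP28 and USP36 act, had 184 ± 20.3 CPM with ML141 and 286 ± 20.4 CPM with DMSO, a difference of -0.64 (SE 0.095, adjusted p = 0.000153 by edgeR) on the log2 scale. MCL1, a survival protein that USP9X spares, stood at -0.45 (SE 0.081, adjusted p = 0.000632 by edgeR). BRCA2, which binds USP11, had a log2 fold change of -1.30 (SE 0.088, adjusted p = 4.25e-07 by edgeR), and SART3, which recruits USP4 and USP15, one of -0.59 (SE 0.077, adjusted p = 5.37e-05 by edgeR). Of the SAGA subunits that hold USP22, ATXN7 was higher at 0.42 (SE 0.096), ENY2 lower at -0.37 (SE 0.092) and ATXN7L3 not called at -0.035 (SE 0.092), and ENY2 was no longer called with library totals (adjusted p = 0.0582). PINK1, the kinase that starts the mitophagy USP30 opposes, rose to 31.3 ± 4.88 CPM with ML141, against 10.2 ± 1.32 CPM with DMSO, at 1.62 (SE 0.155, adjusted p = 5.27e-06 by edgeR). POLB, the polymerase on which USP47 acts, was higher, as USP47 was, at 0.48 (SE 0.136, adjusted p = 0.0106 by edgeR), but it did not pass without DMSO replicate 2 (adjusted p = 0.0587).

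Of the remaining partners called higher, each lost its call when some single library was left out. HIF1A, a substrate of USP20, stood at 0.30 (SE 0.097, adjusted p = 0.0203 by edgeR) and did not pass without any 1 of the DMSO libraries (adjusted p up to 0.0736), while VHL, which binds USP20 and USP33, was not called at 0.097 (SE 0.080). STAM2, an ESCRT protein that USP8 binds, stood at 0.35 (SE 0.125, adjusted p = 0.0322 by edgeR) and did not pass without ML141 replicate 1 or 3 or DMSO replicate 2 or 3 (up to 0.136). STAM and HGS, which work with it, were not called. STAM stood at 0.07 (SE 0.118) and HGS at 0.017 (SE 0.138). AXIN1, on which USP34 acts, stood at 0.28 (SE 0.099, adjusted p = 0.0332 by edgeR) and did not pass without ML141 replicate 2 or 3 or DMSO replicate 1 or 2 (up to 0.172). RELA, the NF-kB subunit on which USP48 acts, stood at 0.27 (SE 0.098, adjusted p = 0.033 by edgeR) and did not pass without ML141 replicate 2 or 3 or any DMSO library (up to 0.102). TGFBR1, the receptor that USP4 and USP15 spare, stood at 0.29 (SE 0.111, adjusted p = 0.0409 by edgeR) and did not pass without ML141 replicate 1 or 3 or any DMSO library (up to 0.138). ERCC1, the substrate of USP45, and PRPF3, the splicing factor on which USP4 and USP15 act, were not called, at 0.17 (SE 0.105) and -0.083 (SE 0.082). VHL and ERCC1 were called higher with library totals.

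**Figure D5:**
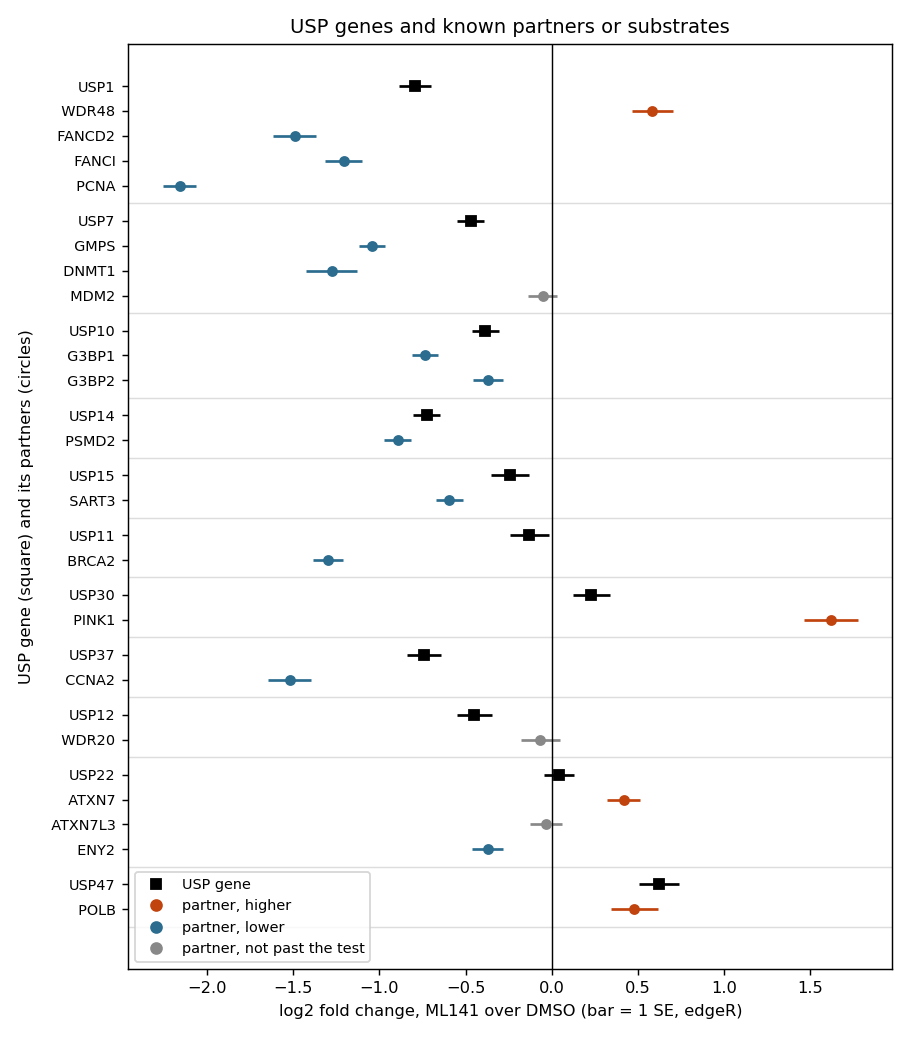
Log2 fold change of ML141 over DMSO (x axis, bars 1 SE from edgeR) of USP genes (squares) and genes for their partners or substrates (circles, coloured by call), in blocks by USP gene. WDR48, at 0.58, lies on the other side of 0 from USP1, at -0.79, whereas PCNA, FANCD2 and FANCI lie further below 0.

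Genes of deubiquitinase families outside the members were read in the same way. The list goes by family, so activity on ubiquitin is not implied for each gene. It holds PAN2, called higher, COPS5, called lower, and USPL1, not called. Of 38 genes 30 were tested, 10 higher and 8 lower, with a median log2 fold change of 0.11. These are 33.3% and 26.7% of those tested, where 26.7% of all genes were higher and 27.7% lower. With upper-quartile factors 14 were higher and 6 lower, where 33.6% and 22.8% of all genes were called. With library totals the numbers were 15 and 6, where 39.2% and 20.1% of all genes were called. Without DMSO replicate 3 the number higher was 5, a count with no share of all genes beside it. CYLD, a tumour suppressor that acts on NF-kB signalling, has a USP-type fold but is not among the members, which were taken by name. It rose to 99.6 ± 13.4 CPM with ML141, against 49.6 ± 2.55 CPM with DMSO, at 1.01 (SE 0.109, adjusted p = 1.27e-05 by edgeR). OTUD1 rose by 1.62 (SE 0.240), ATXN3, the Machado-Joseph disease protease, by 0.77 (SE 0.124) and FAM63A, now MINDY1, by 0.67 (SE 0.138). Among those that fell were TNFAIP3 (A20), a brake on NF-kB, at -0.67 (SE 0.085), OTULIN, which cuts linear chains, at -0.45 (SE 0.085), and BRCC3, of the BRCA1-A complex, at -0.60 (SE 0.104). The proteasome carries 3 deubiquitinases, and all 3 fell, with UCHL5 at -0.87 (SE 0.083) and PSMD14 at -0.45 (SE 0.105) beside USP14 at -0.73 (SE 0.078). PSMD14 was named after its value was seen.

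Of 32 genes for E1 and E2 enzymes, which charge and pass on ubiquitin, 4 were higher and 13 lower, with a median log2 fold change of -0.10. These are 12.5% and 40.6% of those tested, where 26.7% of all genes were higher and 27.7% lower. With upper-quartile factors 6 were higher and 10 lower, where 33.6% and 22.8% of all genes were called. With library totals the numbers were 8 and 9, where 39.2% and 20.1% of all genes were called. The number higher was 2 without ML141 replicate 1 or 3 and without DMSO replicate 1 or 2. For these fits too the share of all genes called is not given. UBA1, the main activating enzyme, fell to 369 ± 25.6 CPM with ML141, against 516 ± 16.8 CPM with DMSO, at -0.48 (SE 0.079, adjusted p = 0.000299 by edgeR). UBE2T, which ubiquitinates FANCD2 and FANCI ahead of USP1, stood at -1.76 (SE 0.174), UBE2N, which builds K63-linked chains, at -1.16 (SE 0.086) and UBE2L3 at -0.70 (SE 0.080). UBE2H rose by 1.15 (SE 0.092) and UBE2W by 0.66 (SE 0.130). UBE2D2 and CDC34 were called higher at 0.27 (SE 0.094) and 0.27 (SE 0.103). UBE2D2 passed only with all libraries or without ML141 replicate 2, and CDC34 only with all or without DMSO replicate 3, when single libraries were left out. Among the genes that encode ubiquitin, UBB fell, at -0.60 (SE 0.105), and RPS27A did not pass, at 0.00057 (SE 0.111).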

How the data were processed

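RNA was measured in 3 ML141 and 3 DMSO libraries of REH cells. Libraries followed the Illumina TruSeq RNA v2 protocol, per the labels' protocols. The submitters' processing notes name bcl2fastq 2.19, Trimmomatic, Bowtie2, Picard, featureCounts, DESeq2 and the hg38 build; neither their settings nor the counting's strand option is stated there. The deposited table holds raw counts per gene, which entered every test. It also holds counts rescaled by the authors and rounded, treated as scores and not tested, with the authors' fold, log2 fold change and p-value columns, per the file headers. The table held 0 columns of samples outside the series.

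Counts were filtered with filterByExpr (minimum count 10, total 15), scaled by TMM and tested with edgeR 4.0.16 (glmQLFit, glmQLFTest) in R 4.3.3, with Benjamini-Hochberg adjustment over all tested genes and a threshold of 0.05. SE is the absolute log2 fold change divided by the square root of F. DESeq2 1.42.0, limma 3.58.1 with voom, other scalings and filters, a replicate block and leaving out libraries were alternatives. The code was tested on simulated data. Exon overlaps, lengths and positions came from GENCODE 29 basic on GRCh38, the hg38 build, and promoter windows from RefSeq.

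The members and lists were chosen with earlier results of these data known. Every tested member could be named. Values per library are given for those called, except USP48 and USP51, which have means and SD, and for some not called. Each other list was named by at most 4 higher and 4 lower called genes with the smallest p, plus genes that bind or are acted on by a described USP. The remaining list genes enter counts only, and some genes that the rule would name are not reported here. Library names share a part between the groups for each replicate number (CV, Reh1, Reh3), though the labels do not say what it marks; deviations of equally numbered libraries correlated at 0.37, 0.085 and 0.18. The fit without the block is the main one, and values with it are given where a call changes. No pair of libraries agreed within sampling noise. P-values measure the spread between these libraries, and intervals and floors cover counting error only.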

Additional observations from a re-analysis of the deposited data

How the results depend on the processing

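Of the 19 called USP genes, 14 kept their call under all 17 alternatives; USP5, USP48, USP51, USP43 and USP35 did not. The number of USP genes higher (3 with TMM factors) was 10 with upper-quartile factors, 15 with library totals and 5 with the replicate block, and 2 to 6 when libraries were left out. Those lower (16) numbered 13 to 18 under every alternative run. The genes higher over the 4 other lists (24) numbered 37 with library totals and 8 to 19 when libraries were left out. Of all genes tested 39.2% were higher with library totals. The shares with the block or with libraries left out are not given.

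Signs changed only in genes not past the test with TMM factors. The values were, with upper-quartile factors, USP4 0.031, USP9X 0.060, USP33 0.083, USP45 0.0091, ATXN7L3 0.067, MDM2 0.050, PRPF3 0.018, WDR20 0.037; with library totals, USP3 0.025, USP4 0.10, USP9X 0.13, USP11 0.047, USP28 0.057, USP33 0.16, USP36 0.032, USP45 0.081, ATXN7L3 0.14, MDM2 0.12, PRPF3 0.090, WDR20 0.11; with no filter, USP33 0.0034; with limma-voom, RPS27A -0.015; and with the replicate block, RPS27A -0.014. The genes that changed sign when libraries were left out ranged as follows, ATXN7L3 -0.091 to 0.032, HGS -0.11 to 0.12, RPS27A -0.15 to 0.11, USP16 -0.10 to 0.23, USP22 -0.025 to 0.092, USP24 -0.0028 to 0.060, USP32 -0.031 to 0.072, USP33 -0.073 to 0.074, USP34 -0.0092 to 0.068, WDR20 -0.12 to 0.0084. The causes of these changes were not tested. The replicate block added USP53 and USP8 to the genes higher and USP15 to those lower and changed no other call among the genes named. Not every library correlated best with its own number. Depth limits the genes near the floor of 3 counts, USP2, USP6, USP40 and USP50 among them.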
